A study of Mus musculus with 11 samples.

Results

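The genes described here are a set of fatty acid oxidation enzymes and other known targets of the nuclear receptor Ppara, 35 genes chosen by name. Of these, 34 had a row of the expression table annotated to them alone, out of 30142 genes with such a row. No listed gene had more than 1 such row, so the rule of taking a gene's strongest row (by its mean over 11 arrays) was not needed for them. Acsl1, a long-chain acyl-CoA synthetase, had no row of its own and was not analysed here. The 34 genes comprise 18 whose products work in mitochondria, 8 in peroxisomes and 8 elsewhere in the cell or at several sites.

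The RNA came from hepatocytes of male mice aged 12 weeks and was hybridised to 11 Affymetrix whole-transcript arrays, from 300 ng of total RNA each. Double KO animals carried a liver-specific deletion of Nemo (NemoLPC-KO) together with a knockout of CXCR6 (3 arrays, source name Nemo_CXCR6 cre+). Nemo KO animals carried the NemoLPC-KO deletion alone (3 arrays, Nemo cre+), and Cxcr6 KO animals carried the CXCR6 knockout alone (3 arrays, Nemo_CXCR6 cre-). Wildtype animals came from the Nemo line without Cre (2 arrays, Nemo cre-). The source names place double KO and Cxcr6 KO in one line and Nemo KO and wildtype in another, so Cxcr6 status and mouse line cannot be told apart. The labels do not name the promoter that drives Cre. Nemo is a scaffold needed by the IkB kinases to switch on NF-kB, and Cxcr6 is a chemokine receptor of lymphocytes.

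Values are RMA log2 signals, on which a difference of 1 is a doubling, and fold changes carry the standard error of a limma fit over all 4 groups. Adjusted p-values are Benjamini-Hochberg values over the 18337 genes tested, and a gene is said to have risen or fallen only where its adjusted p was below 0.05. Whether a gene passed refers to the fit of all 11 arrays unless an array is named as left out. Precision is set here by how many arrays a group has and by the spread between arrays, since arrays have no read depth. Array medians lay between 5.19 and 5.38, and within each group the arrays correlated at 0.984 or higher across all rows, named or not. The row of the Nemo gene, Ikbkg, averaged 9.05 ± 0.39 in double KO, 9.32 ± 0.13 in Nemo KO, 9.15 ± 0.03 in Cxcr6 KO (SD, n = 3 each) and 9.24 ± 0.32 in wildtype (SD, n = 2). Cxcr6 group means lay between 5.18 and 5.41, close to the array medians. These rows summarise whole transcripts and the labels do not name the deleted exons, so they check nothing about the genotype labels. Hepatocyte markers were abundant throughout, with a mean over 14 markers between 17.59 and 17.91 on every array. Wildtype replicate 2 lay below wildtype replicate 1 in 31 of the 34 genes, by a median of 0.77, whereas over all genes tested it was lower in 54.6%. Counts and tested differences against wildtype are therefore also given without that array. Such fits keep 1 wildtype array. For those 31 genes leaving replicate 2 out raises the wildtype mean, so any lower value against wildtype becomes lower by construction.

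Hepatocytes burn fatty acids by beta-oxidation, in which an acyl-CoA is shortened stepwise to acetyl-CoA. Mitochondria handle most chain lengths, with long-chain acyl groups imported through the carnitine shuttle, while peroxisomes begin the oxidation of very long chains. Ppara is activated by fatty acids, as in fasting, and with its partner RXR binds a direct repeat of the core motif AGGTCA near genes of both routes. In liver, Ppara activity also raises thioesterases, which release free fatty acid from acyl-CoA, and the secreted hormone Fgf21.

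Fabp1, a classical Ppara target, fell with Nemo deletion in the Cxcr6-deficient line. In the acyl-CoA thioesterases Acot1 to Acot4, though not in Acot12, every Nemo KO array lay below every other array. The promoters of these genes are printed below. Each is the 250 bases before the gene's start, from RefSeq on the plus strand of GRCm38.p6, with matches to the core motif or its repeat in capitals. Fabp1 lies at chr6:71199629-71199878, Acot2 at chr12:83987611-83987860, Acot1 at chr12:84009252-84009501, Acot4 at chr12:84038129-84038378, Acot3 at chr12:84051894-84052143 and Acot12 at chr13:91741271-91741520. The Acot3 window is the first of its 2 annotated starts.
Fabp1: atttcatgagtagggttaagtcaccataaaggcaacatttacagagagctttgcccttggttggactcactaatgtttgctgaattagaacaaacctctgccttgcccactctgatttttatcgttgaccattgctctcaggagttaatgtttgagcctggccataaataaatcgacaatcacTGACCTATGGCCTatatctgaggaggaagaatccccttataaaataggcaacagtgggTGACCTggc
Acot2: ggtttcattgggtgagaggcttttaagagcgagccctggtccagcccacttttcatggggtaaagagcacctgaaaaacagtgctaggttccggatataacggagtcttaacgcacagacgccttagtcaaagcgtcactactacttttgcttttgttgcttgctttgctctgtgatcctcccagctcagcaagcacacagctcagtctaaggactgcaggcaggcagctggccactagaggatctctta
Acot1: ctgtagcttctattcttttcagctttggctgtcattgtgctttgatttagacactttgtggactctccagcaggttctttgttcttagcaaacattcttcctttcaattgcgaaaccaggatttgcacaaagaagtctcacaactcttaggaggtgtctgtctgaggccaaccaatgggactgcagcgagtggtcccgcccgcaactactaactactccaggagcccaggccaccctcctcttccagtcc
Acot4: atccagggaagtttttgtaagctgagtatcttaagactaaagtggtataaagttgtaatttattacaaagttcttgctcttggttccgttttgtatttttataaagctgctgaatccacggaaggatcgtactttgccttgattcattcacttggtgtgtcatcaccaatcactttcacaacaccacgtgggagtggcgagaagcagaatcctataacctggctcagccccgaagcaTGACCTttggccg
Acot3: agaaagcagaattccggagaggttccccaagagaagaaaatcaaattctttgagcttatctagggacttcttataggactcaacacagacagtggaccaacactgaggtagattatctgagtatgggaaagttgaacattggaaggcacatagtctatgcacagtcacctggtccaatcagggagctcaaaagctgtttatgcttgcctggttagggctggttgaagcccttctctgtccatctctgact
Acot12: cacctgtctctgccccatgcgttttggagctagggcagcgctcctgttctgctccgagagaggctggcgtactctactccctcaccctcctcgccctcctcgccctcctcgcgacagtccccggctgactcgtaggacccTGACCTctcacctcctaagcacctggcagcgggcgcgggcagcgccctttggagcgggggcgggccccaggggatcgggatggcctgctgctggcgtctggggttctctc
Both strands were searched for the core motif AGGTCA, for the repeat AGGTCANAGGTCA, and for that repeat with 1 free letter in each copy, AGGNCANAGGNCA, whose copies overlap the core motif. Windows were found for 31 of the 35 listed genes. The core motif occurred in 8 of them (Acadm, Acadvl, Acot12, Acot4, Cpt1a, Fabp1, Plin2 and Slc27a2) and in 14% of all 32851 promoter windows. A listed gene was counted if any of its windows matched, whereas shares of all windows count single windows, so the units differ. The exact repeat was in none of the 31 genes' windows and in 0.0335% of all windows. The looser repeat was in 0.338% of all windows and, among these genes, in Fabp1 alone. There it read TGACCTATGGCCT on the printed strand, with its first base 67 bases before the start, and a further core motif began 9 bases before the start. In Acot4 the core motif began 13 bases before the start and in Acot12 it began 110 bases before it. A match is a description of letters and not evidence of binding, and motifs farther from the start would not be seen here.

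Across the 34 genes, Cxcr6 KO had the highest group mean in 28, including all 8 peroxisomal and 15 of the 18 mitochondrial genes. Nemo KO had the lowest mean in 22, of which 15 were mitochondrial and 6 peroxisomal. Double KO was highest in 4 and lowest in 4, so for most genes it lay between the single knockouts. Single arrays also stood apart, since Nemo KO replicate 2 was the lowest of 11 in 14 genes, and Cxcr6 KO replicates 3 and 2 were the highest in 11 and 9.

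**Figure D1:**
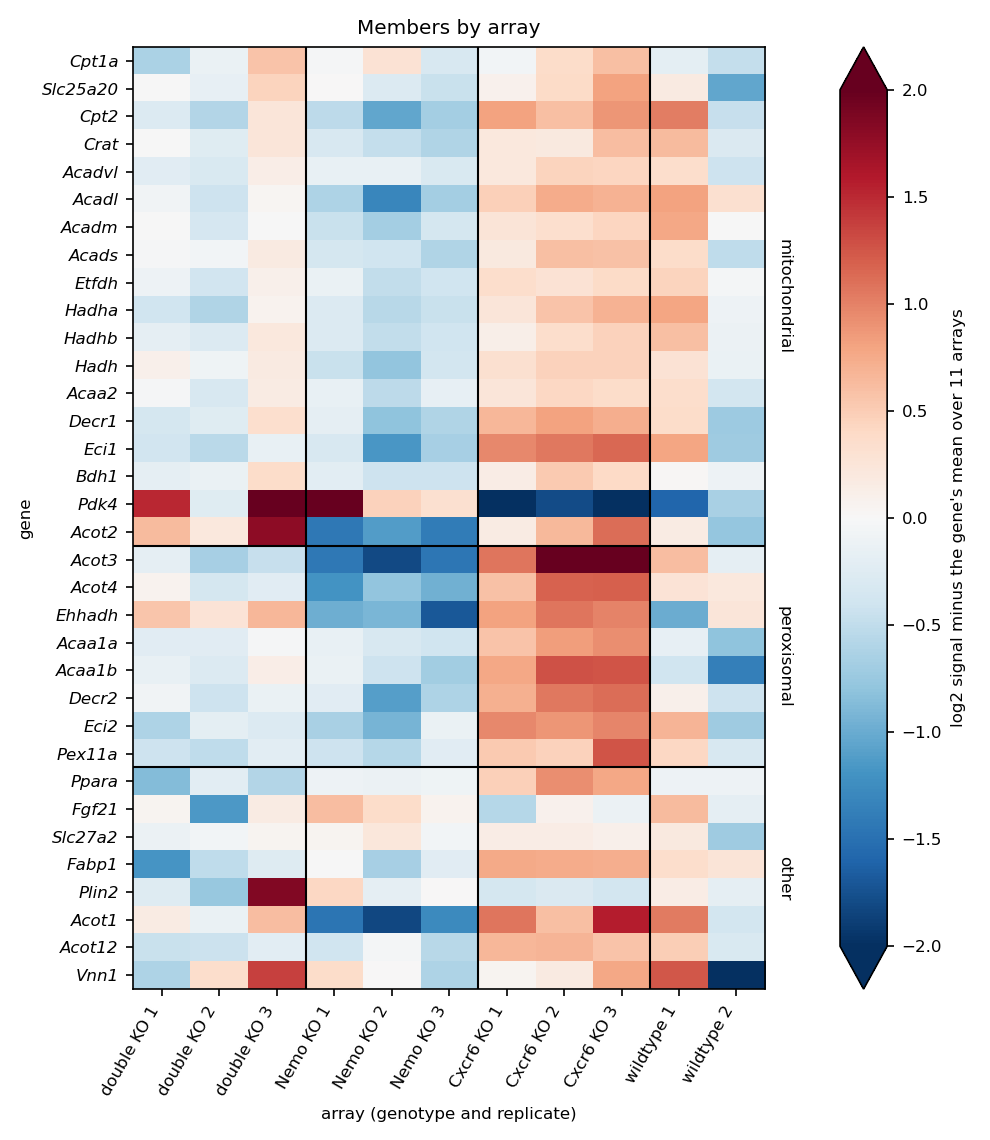
Log2 signal of each of the 34 genes (rows, by site of action) in each of the 11 arrays (columns, by genotype and replicate), minus the gene's mean over the arrays. Colours are capped at a difference of 2 either way. Cxcr6 KO columns are high in the peroxisomal block, Nemo KO columns are low in most mitochondrial and peroxisomal genes, and wildtype replicate 2 is lower than replicate 1 in 31 genes.

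With Nemo deleted in the Cxcr6-deficient line, fatty acid genes were mostly lower. Of the 34 genes, 11 fell and 1 rose in double KO against Cxcr6 KO, a comparison in which 7.41% of all genes tested changed (3.96% fell and 3.44% rose). Those that fell were Ppara itself, Fabp1, 7 of the 8 peroxisomal genes (Acot3, Acot4, Acaa1a, Acaa1b, Decr2, Eci2 and Pex11a), the cytosolic thioesterase Acot12 and 1 mitochondrial gene, Eci1. The 1 that rose was Pdk4. The median log2 fold change over the 34 genes was -0.48, against -0.062 over all genes tested. The fold change was above 0 in 4 of the 34 and below it in 30, where 39.3% of all genes tested were above. In 23 genes every double KO array lay below every Cxcr6 KO array, which 24.4% of all genes tested also did, and in 1 gene every double KO array lay above, against 13.3%. In bulk RNA, fewer hepatocytes in a sample and less RNA of a gene per hepatocyte cannot be told apart, and markers of other cells, given further on, rose in the same comparison.

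The count depended on single arrays. It lay between 9 and 16 genes under 8 other settings of the analysis, and between 1 and 18 when 1 array was left out. Without Cxcr6 KO replicate 3 only Ppara passed, and without Cxcr6 KO replicate 2 only Ppara and Acot3 did. Without double KO replicate 3 the calls were Ppara, Acot3 and Fabp1, all lower. Without double KO replicate 2, 4 genes fell and 1 rose, and without double KO replicate 1, 6 fell. Without Cxcr6 KO replicate 1, 7 fell, and without Nemo KO replicate 1, which enters only through the shared spread, 8 fell. Without either wildtype array, which also enters only through the shared spread, 17 fell and 1 rose. No gene called in this comparison changed sign in any of these fits.

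Ppara, the receptor that heads the set, read 11.39, 12.03 and 11.66 in double KO and 12.15, 12.14 and 12.16 in Nemo KO. It read 12.73, 13.18 and 13.02 in Cxcr6 KO and 12.15 in both wildtype arrays. All double KO arrays lay below all others, all Cxcr6 KO arrays lay above all others, and Nemo KO could not be separated from wildtype. Ppara fell 2.44-fold in double KO against Cxcr6 KO (log2 fold change -1.28 ± 0.16 SE, adjusted p = 0.0086), with an adjusted p between 0.00555 and 0.0431 under every array left out and every other setting. The other differences did not pass the test. Double KO against Nemo KO gave -0.46 (adjusted p = 0.222), Nemo KO against wildtype gave 0.00 and Cxcr6 KO against wildtype gave 0.83 (adjusted p = 0.137). Without wildtype replicate 2 these last 2 values were 0.0042 and 0.83 and did not pass.

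Fgf21, a hormone released by the fasting liver, lay close to or below the array medians. Its group means were 4.95 in double KO, 5.61 in Nemo KO and 5.06 in Cxcr6 KO, with 5.49 in wildtype, and it reached the level for testing, 5.27, only through Nemo KO and wildtype. It passed the test in no comparison.

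Fabp1, a cytosolic carrier of fatty acids, read 16.28, 16.96 and 17.21 in double KO and 17.46, 16.80 and 17.23 in Nemo KO. It read 18.22, 18.20 and 18.18 in Cxcr6 KO and 17.82 and 17.73 in wildtype. Both groups with Nemo deleted lay below both groups with Nemo intact on every array, with no overlap. Fabp1 fell 2.62-fold in double KO against Cxcr6 KO (-1.39 ± 0.23, adjusted p = 0.0160), while Nemo KO against wildtype gave -0.61 (adjusted p = 0.189), and -0.66 without wildtype replicate 2. Its highest values are near the top of the scale, 19.93, where differences are compressed.

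Slc27a2, a transporter and very long-chain acyl-CoA synthetase, had group means of 17.99 in double KO, 18.11 in Nemo KO and 18.16 in Cxcr6 KO, with 17.77 in wildtype. Its wildtype arrays read 18.23 and 17.31, farther apart than the arrays of any other group. Plin2, a coat protein of lipid droplets, was 13.80, 13.30 and 15.91 in double KO, where replicate 3 was the highest of all arrays, and between 13.70 and 14.47 in the other groups. Neither gene passed the test in any comparison.

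The carnitine shuttle carries long-chain acyl groups into mitochondria. Cpt1a, its first and regulated step, had group means of 15.19 in double KO, 15.23 in Nemo KO and 15.55 in Cxcr6 KO, with 14.91 in wildtype. The groups overlapped, except that every Cxcr6 KO array lay above both wildtype arrays (0.64, which did not pass, and 0.50 without wildtype replicate 2). Cpt2, the transferase of the inner membrane, read 12.08, 11.76 and 12.59 in double KO and 11.84, 11.32 and 11.68 in Nemo KO, against 13.16, 12.96 and 13.23 in Cxcr6 KO and 13.38 and 11.90 in wildtype. Wildtype replicate 1 was the highest of all arrays, and wildtype replicate 2 lay among the arrays with Nemo deleted. The double KO to Cxcr6 KO difference of -0.97 did not pass (adjusted p = 0.107). The carrier Slc25a20 and the carnitine acetyltransferase Crat did not pass in any comparison either.

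Within the mitochondrial spiral, 11 genes from the acyl-CoA dehydrogenases to the isomerase Eci1 shared 1 pattern of sign. All 11 had a negative fold change in double KO against Cxcr6 KO, all 11 a positive one in double KO against Nemo KO, and all 11 a negative one in Nemo KO against wildtype. These comparisons share arrays, so the agreement in sign is a description. With all arrays only 1 of the 11 passed the test in any comparison.

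That gene was Eci1, the mitochondrial enoyl-CoA isomerase, which shifts double bonds of unsaturated chains. It read 10.39, 10.23 and 10.62 in double KO and 10.45, 9.61 and 10.10 in Nemo KO, against 11.73, 11.82 and 11.92 in Cxcr6 KO. The wildtype arrays read 11.56 and 10.06, the lower of them below all double KO arrays. Eci1 fell 2.65-fold in double KO against Cxcr6 KO (-1.41 ± 0.34, adjusted p = 0.0433), a call that held in 3 of 11 fits without an array.

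Acadl, the long-chain acyl-CoA dehydrogenase, read 14.33, 13.99 and 14.44 in double KO and 13.79, 13.11 and 13.73 in Nemo KO, against 14.88, 15.15 and 15.11 in Cxcr6 KO and 15.21 and 14.72 in wildtype. The 4 groups fell into 3 levels without overlap, Nemo KO lowest and double KO in the middle. Its differences stopped short of the threshold. They were -0.79 ± 0.21 in double KO against Cxcr6 KO (adjusted p = 0.0525) and -1.43 ± 0.23 in Nemo KO against wildtype (adjusted p = 0.0553). The second was -1.67 without wildtype replicate 2, the lower of the 2 wildtype arrays, with 1 wildtype array left. The medium-chain enzyme Acadm averaged 14.25 ± 0.19 in double KO, 13.87 ± 0.16 in Nemo KO and 14.70 ± 0.09 in Cxcr6 KO (SD, n = 3 each), and 14.74 ± 0.55 in wildtype (SD, n = 2). The trifunctional protein subunits Hadha and Hadhb, the dehydrogenases Acadvl, Acads, Hadh and Etfdh, the thiolase Acaa2 and the reductase Decr1 had log2 fold changes between -0.82 and -0.35 in double KO against Cxcr6 KO, none past the threshold.

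Pdk4 and Bdh1 act beside the spiral. Pdk4 is a kinase that inactivates pyruvate dehydrogenase and so spares glucose when fat is burned. It read 11.84, 10.09 and 14.36 in double KO and 13.07, 10.79 and 10.65 in Nemo KO, against 8.18, 8.55 and 7.71 in Cxcr6 KO and 8.74 and 9.69 in wildtype. Every array with Nemo deleted lay above every array with Nemo intact, but the double KO arrays alone spanned more than 4 log2 units. Pdk4 rose 15.4-fold in double KO against Cxcr6 KO (3.95 ± 1.00, adjusted p = 0.0476). Without double KO replicate 3 the log2 fold change was 2.81 (adjusted p = 0.113), and the call held in 4 of 11 fits without an array and 5 of 8 other settings. Nemo KO against wildtype gave 2.29 ± 1.12 (adjusted p = 0.244), and 2.76 ± 1.48 without wildtype replicate 2 (adjusted p = 0.260). In sign it was opposite to Ppara, and no other gene of the set rose in that comparison. Bdh1, which makes the ketone body hydroxybutyrate, had group means between 10.15 and 10.84 and passed in no comparison.

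In 4 of the 5 acyl-CoA thioesterases, every Nemo KO array lay below every other array. Acot2, Acot1, Acot4 and Acot3 lie in that order on chromosome 12 in GRCm38.p6, with only the noncoding gene Gm40474 between them. They are close paralogs, so rows of the 4 genes may share signal. Acot1, the cytosolic form, read 8.74, 8.44 and 9.19 in double KO and 7.12, 6.76 and 7.30 in Nemo KO, against 9.64, 9.17 and 10.15 in Cxcr6 KO and 9.61 and 8.20 in wildtype. Acot2, the mitochondrial form, read 10.68, 10.25 and 11.82 in double KO and 8.61, 8.92 and 8.64 in Nemo KO, against 10.21, 10.69 and 11.15 in Cxcr6 KO and 10.21 and 9.27 in wildtype. For both genes Nemo KO was apart at the bottom, while double KO overlapped Cxcr6 KO.

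Acot3, a peroxisomal form, read 7.68, 7.19 and 7.39 in double KO and 6.42, 6.04 and 6.40 in Nemo KO, against 8.93, 10.03 and 10.16 in Cxcr6 KO and 8.47 and 7.68 in wildtype. Acot4, the other peroxisomal form, read 8.19, 7.77 and 7.89 in double KO and 6.93, 7.33 and 7.16 in Nemo KO, against 8.71, 9.30 and 9.32 in Cxcr6 KO and 8.39 and 8.33 in wildtype. Both had Nemo KO at the bottom, then double KO, and Cxcr6 KO at the top. Acot3 fell 4.87-fold in double KO against Cxcr6 KO (-2.28 ± 0.33, adjusted p = 0.0114), and Acot4 fell 2.24-fold (-1.16 ± 0.18, adjusted p = 0.0146). Acot3 kept its call in 10 of 11 fits without an array and lost it without Cxcr6 KO replicate 3, at an adjusted p of 0.0501.

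Acot12, a cytosolic acetyl-CoA thioesterase on chromosome 13, did not follow its relatives. It averaged 13.07 ± 0.13 in double KO, 13.10 ± 0.26 in Nemo KO and 14.07 ± 0.06 in Cxcr6 KO (SD, n = 3 each), and 13.52 ± 0.57 in wildtype (SD, n = 2). It fell in double KO against Cxcr6 KO (-0.997 ± 0.20, adjusted p = 0.0243), whereas double KO and Nemo KO differed by -0.03.

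**Figure D2:**
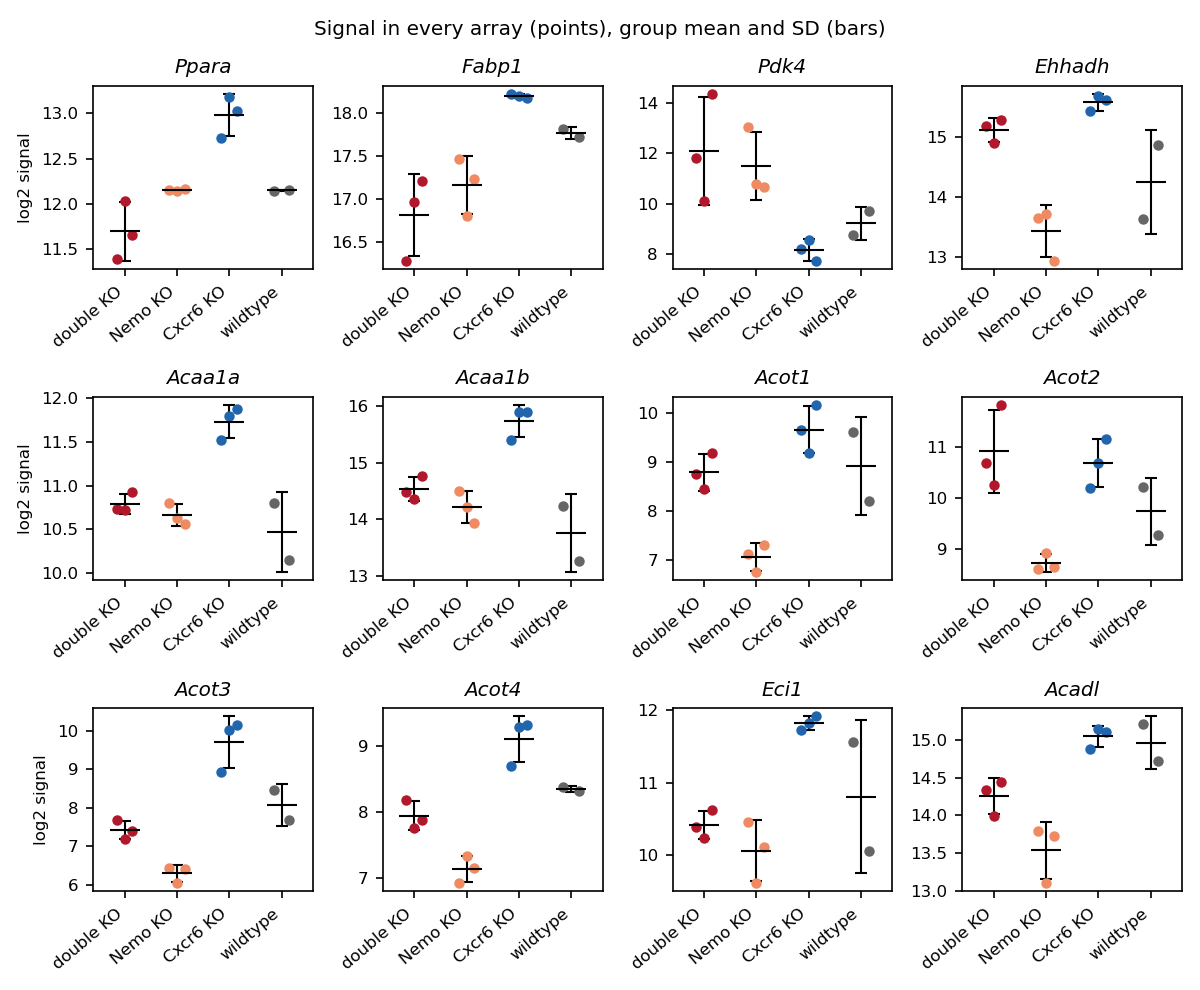
Log2 signal of 12 of the genes in every array (points), with the group mean and SD (bars, n = 3, or 2 in wildtype), on axes scaled to each gene. Acot1 to Acot4 and Ehhadh are lowest in Nemo KO and higher in double KO, Acaa1a, Acaa1b and Eci1 are high in Cxcr6 KO, and Pdk4 is high and scattered in both groups with Nemo deleted.

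All 8 peroxisomal genes had every double KO array below every Cxcr6 KO array, and 7 of them fell, beside 24.4% and 3.96% of all genes tested. Their median log2 fold change was -1.16, against -0.41 for the 18 mitochondrial genes. Of those 18 genes 1 fell and 1 rose, beside 3.96% and 3.44% of all genes tested. The difference between the compartments was not tested. Acaa1a, 1 of a pair of peroxisomal thiolases, read 10.73, 10.72 and 10.93 in double KO and 10.80, 10.63 and 10.56 in Nemo KO, against 11.53, 11.79 and 11.88 in Cxcr6 KO and 10.80 and 10.15 in wildtype. Acaa1b, the other thiolase, read 14.49, 14.35 and 14.76 in double KO and 14.49, 14.22 and 13.93 in Nemo KO, against 15.41, 15.90 and 15.89 in Cxcr6 KO and 14.24 and 13.27 in wildtype. In both, Cxcr6 KO stood above the 3 other groups, which overlapped except that wildtype replicate 2 was lowest. The thiolase genes are near copies of each other and may share signal. Acaa1a fell by 0.94 ± 0.17 in double KO against Cxcr6 KO (adjusted p = 0.0190) and Acaa1b fell by 1.20 ± 0.26 (adjusted p = 0.0307).

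Decr2 and Eci2, the peroxisomal reductase and isomerase for unsaturated chains, fell by 1.16 ± 0.23 (adjusted p = 0.0238) and 1.30 ± 0.32 (adjusted p = 0.0449) in the same comparison. Decr2 averaged 13.79 ± 0.18 in double KO, 13.34 ± 0.43 in Nemo KO and 14.95 ± 0.22 in Cxcr6 KO (SD, n = 3 each), and 13.83 ± 0.37 in wildtype (SD, n = 2). Eci2 averaged 12.34 ± 0.22 in double KO, 12.14 ± 0.40 in Nemo KO and 13.65 ± 0.05 in Cxcr6 KO (SD, n = 3 each), and 12.69 ± 0.98 in wildtype (SD, n = 2). Pex11a, a membrane protein of peroxisome division, fell by 1.13 ± 0.24 (adjusted p = 0.0306).

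Ehhadh, the bifunctional enzyme of the peroxisomal spiral, was the exception. It read 15.19, 14.90 and 15.30 in double KO and 13.65, 13.71 and 12.93 in Nemo KO, against 15.44, 15.70 and 15.62 in Cxcr6 KO and 13.64 and 14.87 in wildtype. Double KO was nearer to Cxcr6 KO than to Nemo KO, and its difference of -0.46 from Cxcr6 KO did not pass (adjusted p = 0.363). Ehhadh was also 1 of the 3 genes in which wildtype replicate 2 exceeded replicate 1.

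Vnn1, a pantetheinase much used as a marker of Ppara activity, could not be ranked between groups. It read 10.94, 11.90 and 12.92 in double KO and 11.92, 11.55 and 10.93 in Nemo KO, against 11.61, 11.73 and 12.32 in Cxcr6 KO and 12.79 and 8.43 in wildtype. The wildtype arrays held both the lowest value of all 11 and a value near the highest.

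**Figure D3:**
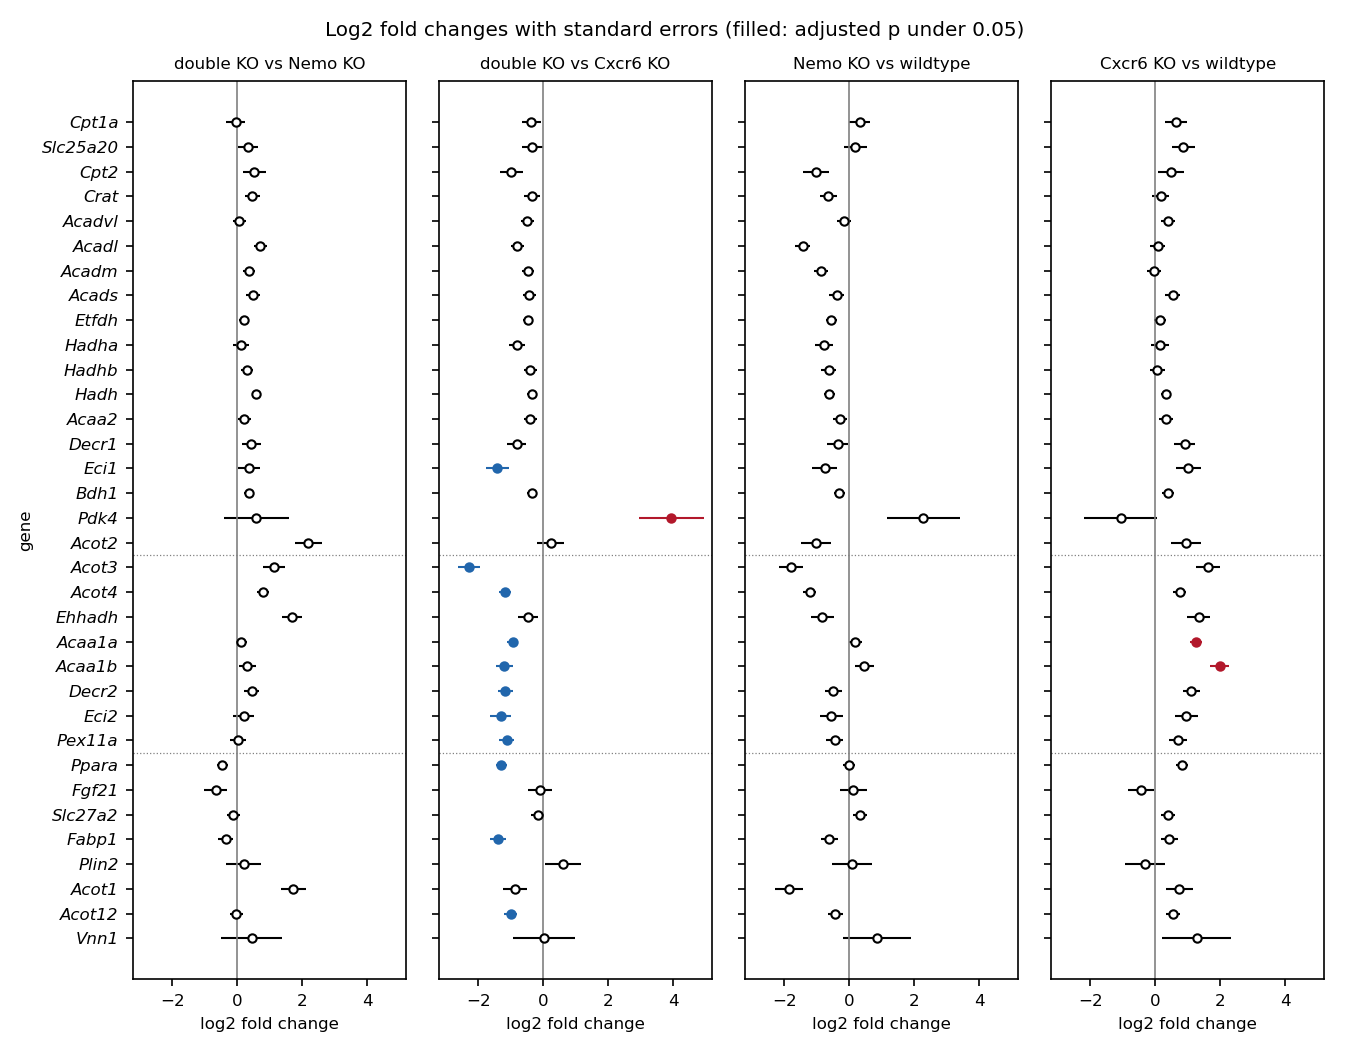
Log2 fold changes of the 34 genes (points) with standard errors (lines) from the limma fit, for 4 comparisons. Filled points have an adjusted p below 0.05. The 12 calls in double KO against Cxcr6 KO and the 2 calls in Cxcr6 KO against wildtype are the only filled points, and dotted lines separate mitochondrial, peroxisomal and other genes.

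Double KO against Nemo KO compares Cxcr6 status together with mouse line where Nemo is deleted. None of the 34 genes passed limma's test, where 0.594% of all genes tested did. At an unadjusted p below 0.05, 9 were higher and 1 lower, and 16.8% of all genes tested were below it. The median log2 fold change was 0.35, against 0.039 over all genes tested, and 28 of the 34 genes were above 0, as were 56.9% of all genes tested. In 11 genes every double KO array lay above every Nemo KO array, against 12.9% of all genes tested, and in 1 gene, Ppara, every double KO array lay below, against 9.94%. Without double KO replicate 3 the median was 0.16.

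The largest of these differences were in the thioesterases and Ehhadh. In double KO, Acot2 stood 4.58-fold above Nemo KO (2.19 ± 0.41, adjusted p = 0.0586), Acot1 3.31-fold (1.73 ± 0.38, adjusted p = 0.0848) and Ehhadh 3.25-fold (1.70 ± 0.31, adjusted p = 0.0548). Acot3 differed by 1.13 (adjusted p = 0.158) and Acot4 by 0.81 (adjusted p = 0.0979). Acot1 and Ehhadh crossed the threshold when either wildtype array was left out of the shared fit, at adjusted p-values of 0.0422 and 0.0175, where 0.878% of all genes tested passed in either case. Ppara was lower by 0.46 in the same comparison, so the receptor and the thioesterases differed in opposite directions, though neither passed.

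The effect of Nemo deletion with Cxcr6 present, Nemo KO against wildtype, depended on which wildtype array was kept. With both wildtype arrays none of the 34 genes passed, and 0.158% of all genes tested did. At an unadjusted p below 0.05, 13 genes were lower and 0 higher, against 24.6% of all genes tested below it in either direction. The median was -0.47, against -0.039 over all genes tested. In 14 genes all Nemo KO arrays lay below both wildtype arrays, against 24.7% of all genes tested, and in 1 gene, Pdk4, they lay above, against 11.3%. Nearest to the threshold were Acot4 at -1.22 ± 0.21 (adjusted p = 0.0553), Acot3 at -1.78 ± 0.37 (adjusted p = 0.0654) and Acot1 at -1.85 ± 0.42 (adjusted p = 0.0701), beside Acadl above.

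Without wildtype replicate 2, 15 genes fell, where 12.9% of all genes tested changed, and the median was -0.82. They were 10 mitochondrial genes (Acadl, Acadm, Acads, Cpt2, Crat, Eci1, Etfdh, Hadh, Hadha and Hadhb), 3 peroxisomal genes (Acot3, Acot4 and Eci2), Acot1 and Acot12. Acot1 fell by 2.55 ± 0.39 (adjusted p = 0.0114), Acot3 by 2.18 ± 0.44 (adjusted p = 0.0217), Acot4 by 1.25 ± 0.27 (adjusted p = 0.0277) and Acadm by 1.27 ± 0.17 (adjusted p = 0.00894). Without wildtype replicate 1 instead, 1 gene passed, Slc27a2, which was higher in Nemo KO, where 1% of all genes tested changed, and the median was -0.052. In both cases a single wildtype array stood for its group and was assumed to vary like the others. Replicate 2 was left out in the first case because these genes read low in it, so the deeper falls there are no separate support.

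Cxcr6 KO against wildtype compares Cxcr6 status together with mouse line, with Nemo intact. It gave 2 genes that rose, where 0.175% of all genes tested did. These were Acaa1a, by 1.26 ± 0.19 (adjusted p = 0.0430), and Acaa1b, by 1.98 ± 0.29 (adjusted p = 0.0419), the peroxisomal thiolases described above. Both calls were kept without either wildtype array and lost when any of the 9 other arrays was left out. All 8 peroxisomal genes had Cxcr6 KO arrays above both wildtype arrays, and their median was 1.19, against 0.37 for the 18 mitochondrial genes and 0.0064 over all genes tested. Over the 34 genes, 16 had Cxcr6 KO wholly above wildtype and 2 wholly below, against 12.7% and 11.2% of all genes tested.

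Without wildtype replicate 2, Ehhadh rose as well, by 1.95 ± 0.30 (adjusted p = 0.0214), making 3 calls where 1.95% of all genes tested changed. The median over the 8 peroxisomal genes was then 0.90 and that over the 18 mitochondrial genes -0.0041. Without wildtype replicate 1, 9 genes rose (Acaa1a, Acaa1b, Acads, Acot12, Decr1, Eci1, Eci2, Slc27a2 and Vnn1), where 2.65% of all genes tested changed.

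The interaction asks whether the Nemo effect differed between the 2 lines, as double KO minus Cxcr6 KO less the difference of Nemo KO minus wildtype. None of the 34 genes and none of the 18337 genes tested passed limma's test (0% called). At an unadjusted p below 0.05 there were 3 of the 34, all negative, and 11.8% of all genes tested. These were Ppara (-1.28 ± 0.25, adjusted p = 0.251), Acaa1a (-1.13) and Acaa1b (-1.66). The median was -0.18, and it was 0.090 without wildtype replicate 2 and -0.67 without wildtype replicate 1, when Acaa1a, Acaa1b and Slc27a2 passed and 1.25% of all genes tested did. A difference in the Nemo effect between the lines was thus not detected among these genes with all arrays, and its sign over the set turned with the wildtype array used.

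A further list of fatty acid genes outside the 34, among them other acyl-CoA synthetases, transporters, peroxins and lipases, had 76 of 87 genes tested. In double KO against Cxcr6 KO 6 of them fell and 2 rose, with a median of -0.30, beside 3.96% and 3.44% of all genes tested. Those that fell were Fitm1 (lipid droplet formation, -2.17 ± 0.48), Acsm3 (a medium-chain acyl-CoA synthetase, -1.27 ± 0.30), Acadsb (a branched-chain acyl-CoA dehydrogenase, -0.99 ± 0.21), Abcd3 (a peroxisomal fatty acid transporter, -0.78 ± 0.17), Pnpla2 (the triglyceride lipase ATGL, -0.76 ± 0.16) and Pex7 (a peroxisomal import receptor, -0.72 ± 0.15). The thioesterase Acot9 rose by 0.91 ± 0.23 and the adipocyte carrier Fabp4 by 0.68 ± 0.14. None of the 76 passed in double KO against Nemo KO, where 61 were above 0 beside 56.9% of all genes tested, or in Nemo KO against wildtype. Without wildtype replicate 2, 14 fell and 4 rose in Nemo KO against wildtype, where 12.9% of all genes tested changed. Abcd3 rose in Cxcr6 KO against wildtype, by 1.27 ± 0.19 (adjusted p = 0.0430), but not without wildtype replicate 2, at 1.06 ± 0.22 (adjusted p = 0.0553).

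Cyp4a14, a microsomal fatty acid hydroxylase of that list, was chosen here after its values were seen. Its tested relatives in the list, Cyp4a31, Cyp4a32 and Cyp4a12a, gave 2.51, 2.51 and 0.20 in double KO against Nemo KO. None passed there, and rows of these related genes may share signal. Cyp4a14 read 16.60, 15.78 and 16.40 in double KO and 12.42, 12.96 and 12.47 in Nemo KO. It read 17.82, 17.64 and 17.91 in Cxcr6 KO and 17.96 and 14.72 in wildtype. All its Nemo KO arrays were the lowest, as in Acot1 to Acot4. The differences of 3.65 ± 0.65 in double KO against Nemo KO (adjusted p = 0.0528) and -3.73 ± 0.73 in Nemo KO against wildtype (adjusted p = 0.0651) did not pass. Without wildtype replicate 2 the second was -5.35 ± 0.32 and passed (adjusted p = 0.000846).

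Markers of other liver cells moved in the same comparisons. In double KO against Cxcr6 KO, 15 of 18 endothelial markers rose, with a median of 1.48, as did 8 of 20 macrophage markers (1.30). So did 10 of 14 stellate and fibroblast markers (0.98) and 4 of 7 cholangiocyte markers (1.07), beside 3.44% of all genes tested. The mean over the endothelial markers was 7.76 to 8.62 in double KO, 7.10 to 7.50 in Nemo KO and 6.27 to 6.87 in Cxcr6 KO, with 6.81 to 6.88 in wildtype. That over the macrophage markers was 7.76 to 8.54 in double KO, 7.16 to 8.40 in Nemo KO and 6.74 to 6.995 in Cxcr6 KO, with 6.38 to 7.48 in wildtype. The mean over the stellate and fibroblast markers was 6.72 to 7.62 in double KO, 6.53 to 6.64 in Nemo KO and 5.83 to 5.94 in Cxcr6 KO, with 5.94 to 6.31 in wildtype. The cholangiocyte mean was 6.41 to 7.33 in double KO, 6.07 to 6.21 in Nemo KO and 5.75 to 5.91 in Cxcr6 KO, with 5.81 to 5.97 in wildtype. For all 4 cell types double KO was highest on average and Cxcr6 KO lowest. In double KO against Nemo KO, where 0.594% of all genes tested were called, the endothelial median was 0.92 with 1 call (Tek). The cholangiocyte median was 0.94 with 1 call (Tspan8), and the macrophage and stellate medians were 0.53 and 0.55 with 0 calls. Only 4 of 14 T and NK cell markers and 4 of 10 neutrophil markers were high enough to be tested, and none passed in any comparison. None of the 14 hepatocyte markers tested passed in any comparison either, though some, such as Alb at 19.82 to 19.93, were near the top of the scale. Their median in double KO against Cxcr6 KO was -0.061, against -0.062 over all genes tested. The part of other cells in the differences of the fatty acid genes was not tested.

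Ppara and several of its targets are known to oscillate over the day, and circadian genes differed as well. In double KO against Cxcr6 KO, 2 of 16 rose (Arntl and Clock) and 4 fell (Dbp, Hlf, Nr1d2 and Usp2), beside 3.44% and 3.96% of all genes tested. None passed in the other comparisons. For the interaction, 8 of the 16 had an unadjusted limma p below 0.05, against 11.8% of all genes tested. The mean over the 16 genes was 7.77 to 8.52 in double KO and 8.11 to 8.26 in Nemo KO. It was 8.53 to 8.94 in Cxcr6 KO, with 8.20 to 8.46 in wildtype. This mean joins genes that rose with genes that fell, so it does not show how far the clock genes differed. The labels give no sampling times, and the part of the clock in the fatty acid genes was not tested. Of a list of 12 lipogenic and related genes, 1 rose (Insig2) and 2 fell (Me1 and Dgat2) in double KO against Cxcr6 KO. The shares over all genes tested were again 3.44% and 3.96%. None of 11 genes of a fasting and gluconeogenic list passed. The called genes of these lists were named after their values were seen.

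**Figure D4:**
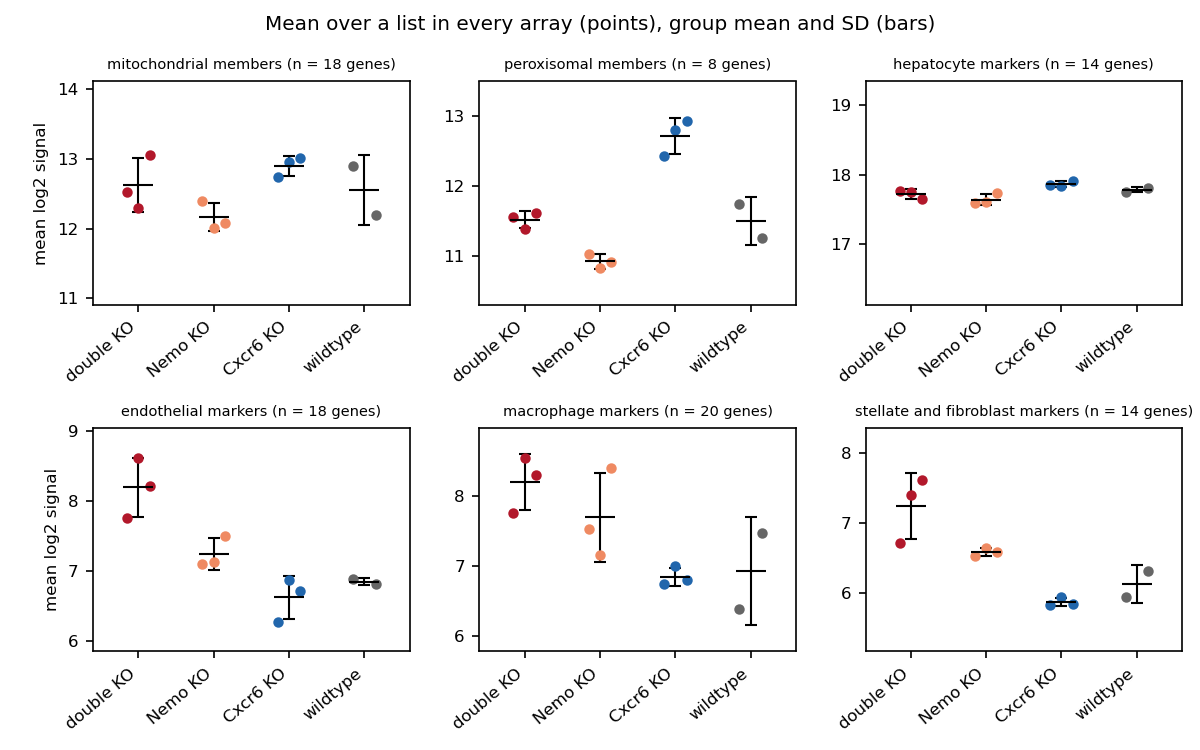
Mean log2 signal over the 18 mitochondrial and 8 peroxisomal genes and over markers of 4 cell types in every array (points), with the group mean and SD (bars). The peroxisomal mean was 11.39 to 11.62 in double KO, 10.83 to 11.04 in Nemo KO and 12.44 to 12.94 in Cxcr6 KO, with 11.26 to 11.75 in wildtype, and the endothelial, macrophage and stellate means were highest on average in double KO.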

How the data were processed

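Hepatocyte RNA of 12-week-old male mice was hybridised to 11 arrays (double KO 3, Nemo KO 3, Cxcr6 KO 3, wildtype 2). Per the labels' protocols, cDNA from 300 ng of total RNA was labelled with a whole-transcript kit. The deposited values are log2 signals in a table of 65956 rows. They were made by the authors with RMA, and the submitters' processing notes also name Affymetrix Expression Console and Transcriptome Analysis Console, without versions. RMA corrects background, normalizes quantiles and summarises probes, which compresses differences near the ends of the scale. The sources used here name no genome build for the rows.

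Rows with 1 gene symbol in the platform annotation (30604) were named, with 827 symbols updated through gene identifiers against RefSeq on GRCm38.p6. The row with the highest mean stood for each gene. Testing was limited to the 18337 genes with a group mean of at least 5.27, the median over all rows. limma 3.58.1 in R 4.3.3 (lmFit, eBayes) fitted a mean per group over all arrays, with 7 residual degrees of freedom, two-sided, with Benjamini-Hochberg adjustment at 5%. The fit was tested on simulated data. Every gene of the set is accounted for, with those past 5% named. Of the further list at most 8 past 5% are named, and of each marker list at most 3, with exceptions marked in the text. The genes, lists and tests were chosen with earlier results of these data known. The labels call the replicates biological without saying that each is a separate animal, so p-values measure the spread between these arrays. Alternatives changed the samples fitted, the filter, the scaling, the variance model, the row per gene, the replicate block and the arrays left out.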

Additional observations from a re-analysis of the deposited data

How the results depend on the processing

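Of the 34 genes, the count past 5% was 0 in double KO against Nemo KO, and it became 1 with a stricter filter (Ehhadh), 2 with each array centred on its median (Acot2 and Ehhadh) and 1 with the replicate block (Acot1). Centring moved the median of all genes in that comparison to 0.16, against 0.039 as deposited, so those calls are relative to a shift. In Nemo KO against wildtype the count of 0 became 6 with centring and 2 with the stricter filter. In Cxcr6 KO against wildtype the count of 2 became 0 with centring, without a filter, with only the 2 groups fitted and with the replicate block, and 1 with a trended, robust variance. Over all genes tested, the 47 calls of Cxcr6 KO against wildtype became 28 with centring, 24 without a filter, 0 with 2 groups fitted and 24 with the block. The 29 calls of Nemo KO against wildtype became 1274 with centring, 7 without a filter, 0 with 2 groups fitted, 11 with quantile normalization, 0 with the block, 127 with the stricter filter and 11 with the robust variance. The 1358 calls of double KO against Cxcr6 KO became 2766 with 2 groups fitted. The 109 calls of double KO against Nemo KO became 200 with centring, 11 with 2 groups fitted, 61 with the block and 61 with the stricter filter. The cause of these changes was not tested.

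Leaving out 1 array in turn, the count among the 34 genes ran from 0 to 2 in double KO against Nemo KO, 1 to 18 in double KO against Cxcr6 KO, 0 to 15 in Nemo KO against wildtype, 0 to 9 in Cxcr6 KO against wildtype and 0 to 3 for the interaction. Over all genes these ranges were 19 to 161, 116 to 2352, 0 to 2369, 8 to 486 and 0 to 230 in the same order. The median log2 fold change of the 34 genes ran from 0.16 to 0.46, -0.65 to -0.39, -0.82 to -0.052, 0.13 to 0.80 and -0.67 to 0.090. Deviations of same-numbered arrays correlated between -0.27 and 0.28. Differently numbered arrays were not compared, so whether the array numbers pair the samples was not settled. The block is given for that reason as a setting only.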
